A study of Homo sapiens with 6 samples.

Results

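miR-183, miR-182 and miR-96 are microRNAs (miRNAs) cut from 3 hairpins that form a cluster on chromosome 7 and are transcribed together. All 6 mature members, the 5p and 3p arms of each hairpin, were taken by name from the 2656 mature miRNAs listed in the deposited count table, and all 6 were abundant enough to be tested. The counts come from small RNA libraries of KPL4, an established human breast adenocarcinoma line. The first group held 3 libraries of cells in which ESR2, the gene of estrogen receptor β (ERβ), had been knocked out and exogenous ERβ then added by transfection, called ERβ libraries 1, 2 and 3. The second held 3 libraries of the ERβ knockout cells (KO), called S1, S2 and 3. Both groups therefore carry the knockout, and the comparison asks how miRNAs differ between knockout cells with ERβ and without it. No knockout cells given an empty vector are among the samples, and the labels do not say whether a single knockout clone gave rise to both groups. An effect of ERβ and any other difference between the cell populations cannot be told apart. The labels do not state that replicates are separate cultures, and p-values then reflect only the spread among these libraries, which may be technical. Small RNA libraries do not measure ESR2 messenger RNA, which leaves the knockout and the added receptor unchecked here.

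A mature miRNA guides the Argonaute protein to messenger RNAs that pair with its seed, the bases near its 5′ end, and lowers their output. The 5p arms of the cluster are the guide strands. They are abundant in sensory cells, where human mutations in the seed of miR-96 cause hearing loss, and they are raised in many carcinomas, breast cancer among them. In breast cancer cells miR-96 and miR-182 repress the transcription factor FOXO1, and miR-182 also targets BRCA1, the DNA repair gene. miR-183 targets the cytoskeletal linker ezrin. miR-183, like the miR-200 family, is repressed by ZEB1, a driver of the epithelial to mesenchymal transition.

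The 5p arms are shown with bases 2 to 8, the seed, in capitals (RefSeq, GRCh38.p14), to show how close the 3 guides are; the last line is miR-1271-5p, from chromosome 5, the other miRNA of the RefSeq table with the seed of miR-96-5p.
miR-183-5p: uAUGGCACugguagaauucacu
miR-96-5p: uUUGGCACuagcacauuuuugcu
miR-182-5p: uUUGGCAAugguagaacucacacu
miR-1271-5p: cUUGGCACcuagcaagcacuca
Counting from 1 at the 5′ end, the seeds of miR-183-5p and miR-96-5p differ by A2U and those of miR-96-5p and miR-182-5p by C8A. miR-96-5p and miR-182-5p thus have the same bases 2 to 7, whereas miR-183-5p shares its bases 2 to 7 with no other of the 2370 mature miRNAs in the RefSeq table. Over all positions compared, the seed included, the likeness runs the other way. miR-183-5p and miR-182-5p were identical at 18 of 22 positions read from the 5′ end, while miR-96-5p matched miR-183-5p at 13 of 22 and miR-182-5p at 12 of 23. Every count of the 6 members in the table was a whole number, although 6.33 to 7.27% of the entries of each library were not, as where reads are divided among miRNAs.

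The hairpins lie on the minus strand in the order MIR183, MIR96, MIR182. In GENCODE release 29 (GRCh38) MIR183 spans chr7:129774905-129775014, MIR96 chr7:129774692-129774769 and MIR182 chr7:129770383-129770492. MIR183 and MIR96 are 135 bases apart and MIR182 lies 4199 bases beyond MIR96, so that the cluster covers 4632 bases. No other annotated gene of that release overlaps it. It sits between the protein-coding genes NRF1, 13.3 kb away, and UBE2H, 55.7 kb away. In the hairpins of MIR96 and MIR182 (RefSeq, GRCh38.p14) the capitals mark the 5p arm, which comes first, and the 3p arm, since the arms of each hairpin are counted separately below.
MIR96: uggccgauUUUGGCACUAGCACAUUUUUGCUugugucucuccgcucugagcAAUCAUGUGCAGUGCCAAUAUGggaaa
MIR182: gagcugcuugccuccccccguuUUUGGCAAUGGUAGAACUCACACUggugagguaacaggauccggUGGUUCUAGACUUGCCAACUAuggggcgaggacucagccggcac

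Total counts were 10288415 to 14296902 in the ERβ libraries and 10619000 to 12228519 in the knockout libraries. Knockout library S2 stood apart. Its chi-square per degree of freedom against the other knockout libraries was 308 and 334, against 12.2 to 21.2 for every other pair of libraries within a group. Results that rest on it are therefore given with and without it. Levels below are CPM (counts scaled to a fixed library total) after TMM scaling, which sets libraries to a common size by the bulk of their miRNAs. Factors were 1.04 to 1.08 in the ERβ libraries and 0.926 to 0.990 in the knockout libraries. A miRNA is called where its adjusted p was under 0.05 in the test across all miRNAs described below. Epithelial markers were abundant, summing to 164755 to 170640 CPM over 6 miRNAs in the ERβ libraries and 160630 to 219166 CPM in the knockout libraries. Most of this sum was miR-21-5p, with 115313 to 118477 CPM with ERβ and 105781 to 158938 CPM in knockout cells. Of the 6, 1 was called higher and 3 lower, beside 9.83% and 13.3% of all tested miRNAs; the luminal marker miR-375-3p was at -0.57 ± 0.10. The 5 blood markers summed to 18.3 to 21.5 CPM with ERβ and 17.3 to 22.3 CPM in knockout libraries. The red cell miRNA miR-451a, with 9 to 16 reads in a library, averaged 0.786 CPM with ERβ and 1.38 CPM without. It was not called. Of 6 miRNAs of stroma, muscle and endothelium, 3 were tested and all 3 were called lower with ERβ, as were 13.3% of all tested miRNAs; the sum of the 6, of 13084 to 14241 CPM in the ERβ libraries and 16551 to 16971 CPM in the knockout libraries, was nearly all miR-126-3p. Of the 2 markers of liver and neurons, miR-122-5p was tested and not called, and the neuronal miR-124-3p was at 0 in 5 of 6 libraries. The part of these markers in the results was not tested.

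In cells with exogenous ERβ the calls among the members were on the miR-183 hairpin. miR-183-5p and miR-183-3p rose, by 1.16-fold and 1.25-fold, while miR-182-5p, miR-182-3p, miR-96-5p and miR-96-3p did not pass the test. So 2 of the 6 members were called higher and 0 lower, beside 9.83% of all 783 tested miRNAs called higher and 13.3% called lower (quasi-likelihood test of edgeR, adjusted after Benjamini and Hochberg, p under 0.05). All fold changes are ERβ over KO, on a log2 scale unless given as a fold. The fitted value was above 0 for all 6 members, as for 48.7% of all tested miRNAs. The members' median log2 fold change was 0.19, against -0.01 over all tested miRNAs. The 6 members share a locus and each pair of arms a hairpin, so they are not independent of each other. No call among the members withstood the removal of any 1 library other than S2. The members called higher numbered 0 without ERβ library 1, 2 or 3 or knockout library S1 or 3, and 3 without S2, which leaves 15.2% of all miRNAs called higher.

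miR-183-5p, the guide strand of the first hairpin, had 5287, 5230 and 5367 CPM in ERβ libraries 1, 2 and 3, against 4306, 4843 and 4487 CPM in knockout libraries S1, S2 and 3. Every ERβ library lay above every knockout library, and the ERβ libraries lay closer together. The means were 5295 ± 68.7 CPM with ERβ and 4545 ± 273 CPM in knockout cells (SD, n = 3 each), or 0.22 ± 0.07 as log2 fold change (SE; edgeR quasi-likelihood test, adjusted p = 0.0442). It was called in 9 of 16 alternative settings, with an adjusted p of 1.87e-05 to 0.243 over them.

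Its passenger strand miR-183-3p was far less abundant, with 57.6, 55.1 and 61.2 CPM in the ERβ libraries, against 49.3, 45.0 and 45.4 CPM in the knockout libraries. The groups again did not overlap. Means of 58.0 ± 3.04 CPM with ERβ and 46.6 ± 2.35 CPM without (SD, n = 3 each) differed by 0.32 ± 0.10 in log2 (edgeR quasi-likelihood test, adjusted p = 0.0421; 0.00393 to 0.200 over the alternatives). This arm too was called in 9 of 16 settings. Both arms of the miR-183 hairpin lay close to the threshold, ranking 177 and 170 by p-value among all tested miRNAs, of which 181 were called.

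miR-182-5p, from the far end of the cluster, was its most abundant product and ranked 28 to 39 among all miRNAs, depending on the library. It had 8092, 8403 and 8934 CPM in the ERβ libraries, against 7649, 7005 and 7891 CPM in knockout libraries S1, S2 and 3. The groups did not overlap, although ERβ library 1 lay close to knockout library 3. The means were 8476 ± 426 CPM with ERβ and 7515 ± 458 CPM in knockout cells (SD, n = 3 each). The log2 fold change of 0.17 ± 0.07 did not pass (edgeR quasi-likelihood test, adjusted p = 0.125; 0.00355 to 0.403 over the alternatives). It passed in 4 of 16 settings, among them the removal of S2, after which it was 0.13 ± 0.04 (adjusted p = 0.0331).

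miR-182-3p had 20.5, 17.3 and 16.8 CPM with ERβ and 18.3, 15.5 and 14.5 CPM in the knockout libraries, so the groups overlapped. Its log2 fold change was 0.18 ± 0.14 (edgeR quasi-likelihood test, adjusted p = 0.417), and it was called under none of the 16 alternatives.

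miR-96-5p, the middle guide strand, had 2373, 2363 and 2339 CPM in the ERβ libraries, against 2363, 1580 and 2477 CPM in knockout libraries S1, S2 and 3. Knockout library S1 lay within the range of the ERβ libraries and knockout library 3 above it, and S2 alone lay well below all others. The means of 2358 ± 17.8 CPM with ERβ and 2140 ± 488 CPM in knockout cells (SD, n = 3 each) differed by 0.14 ± 0.15 in log2 (edgeR quasi-likelihood test, adjusted p = 0.556). Without S2 the value turned to -0.04 ± 0.04 (adjusted p = 0.541; 0.122 to 0.750 over all alternatives), so that its sign rested on that library.

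miR-96-3p, the scarcest member, had 38, 56 and 57 reads in ERβ libraries 1, 2 and 3 and 33, 38 and 34 reads in knockout libraries S1, S2 and 3, or 3.42, 3.74 and 3.85 CPM with ERβ and 3.00, 3.14 and 3.46 CPM without. The exact Poisson 95% interval of 38 reads runs from 26.9 to 52.2, for counting error only. The groups overlapped in CPM, and the log2 fold change was 0.21 ± 0.17 (edgeR quasi-likelihood test, adjusted p = 0.447).

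**Figure D1:**
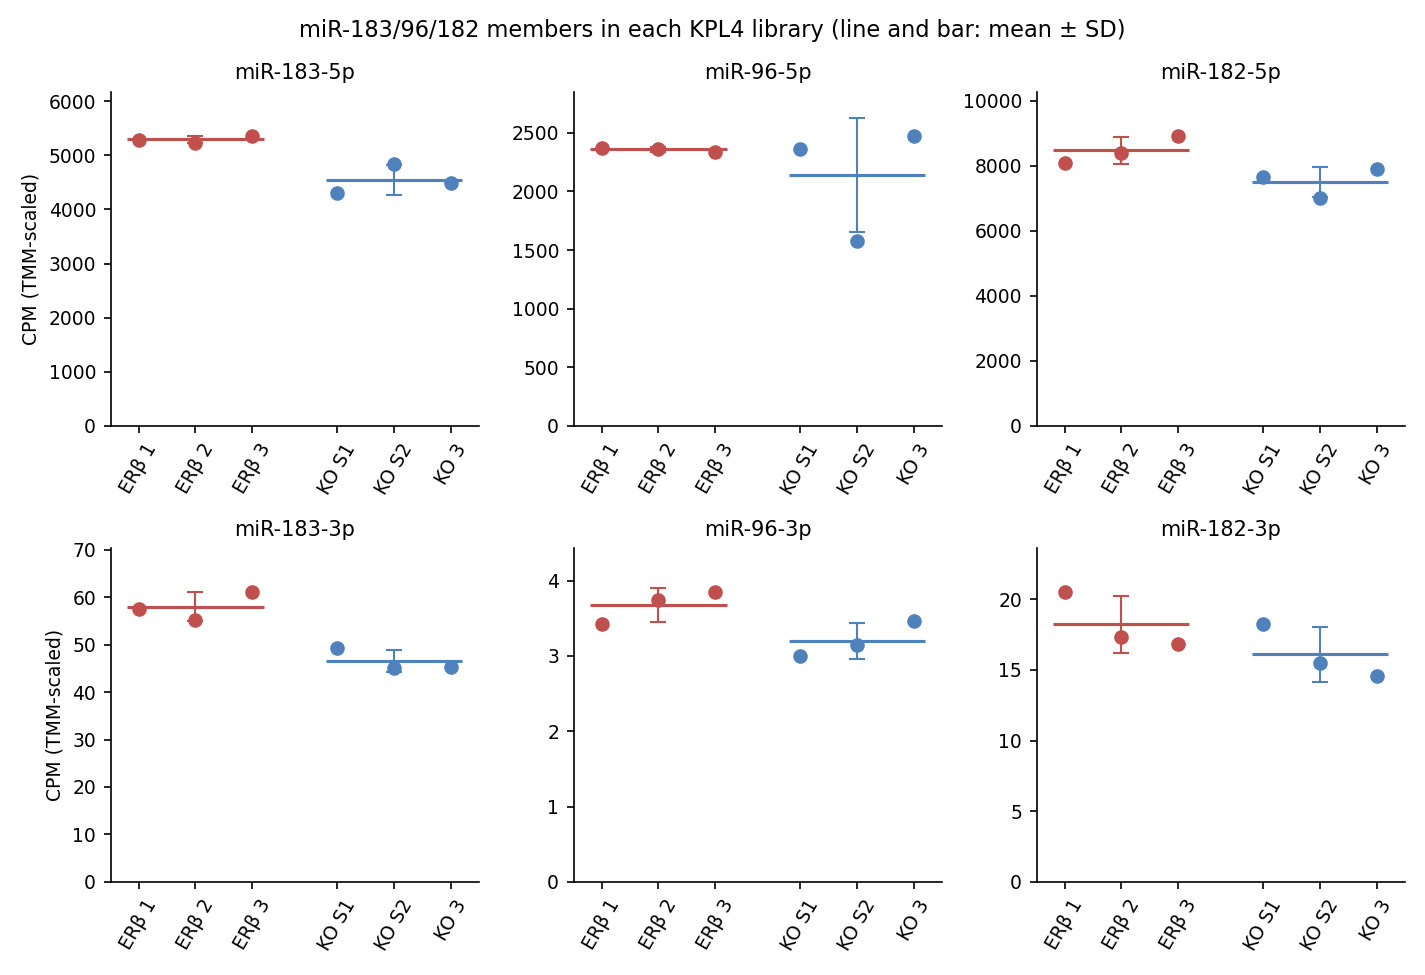
Level of each of the 6 members in CPM after TMM scaling (y axis, from 0) in the 3 ERβ libraries (red) and the 3 knockout libraries (blue). Points are libraries, lines the group means and bars the SD; miR-183-5p, miR-183-3p and miR-182-5p do not overlap between groups, and miR-96-5p in knockout library S2, at 1580 CPM, lies below all other libraries.

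Every ERβ library lay above every knockout library for 3 of the 6 members, beside 18.9% of all tested miRNAs with that separation in CPM after TMM scaling. With CPM of unscaled library totals it was 6 of 6 members, beside 31.7% of all tested miRNAs. This scaling moved the median log2 fold change of all miRNAs to 0.14 and that of the members to 0.35. Relative to all miRNAs the members' median was 0.20 higher under either scaling, since a scaling shifts every miRNA alike. With totals miR-183-5p was at 0.37, miR-182-5p at 0.33 and miR-96-5p at 0.30 (log2).

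Taken as a whole, the 6 members held 1.71, 1.68 and 1.74% of all counts in ERβ libraries 1, 2 and 3 (exact Clopper-Pearson 95% intervals 1.70 to 1.72, 1.68 to 1.69 and 1.74 to 1.75%). In knockout libraries S1, S2 and 3 they held 1.33, 1.34 and 1.38% (1.33 to 1.34, 1.33 to 1.34 and 1.37 to 1.39%). These intervals cover counting error only. The groups were well apart, at 1.71 ± 0.03% with ERβ and 1.35 ± 0.03% without (SD, n = 3 each), and the difference of 0.361 percentage points had p = 0.1 in an exact two-sided permutation test, the smallest p that 3 against 3 libraries allow. S2 did not stand apart in this total, although it did in miR-96-5p. Leaving out 1 library at a time moved the difference between 0.345 and 0.376 percentage points. Shares follow the library totals and so include the shift of all miRNAs described above.

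**Figure D2:**
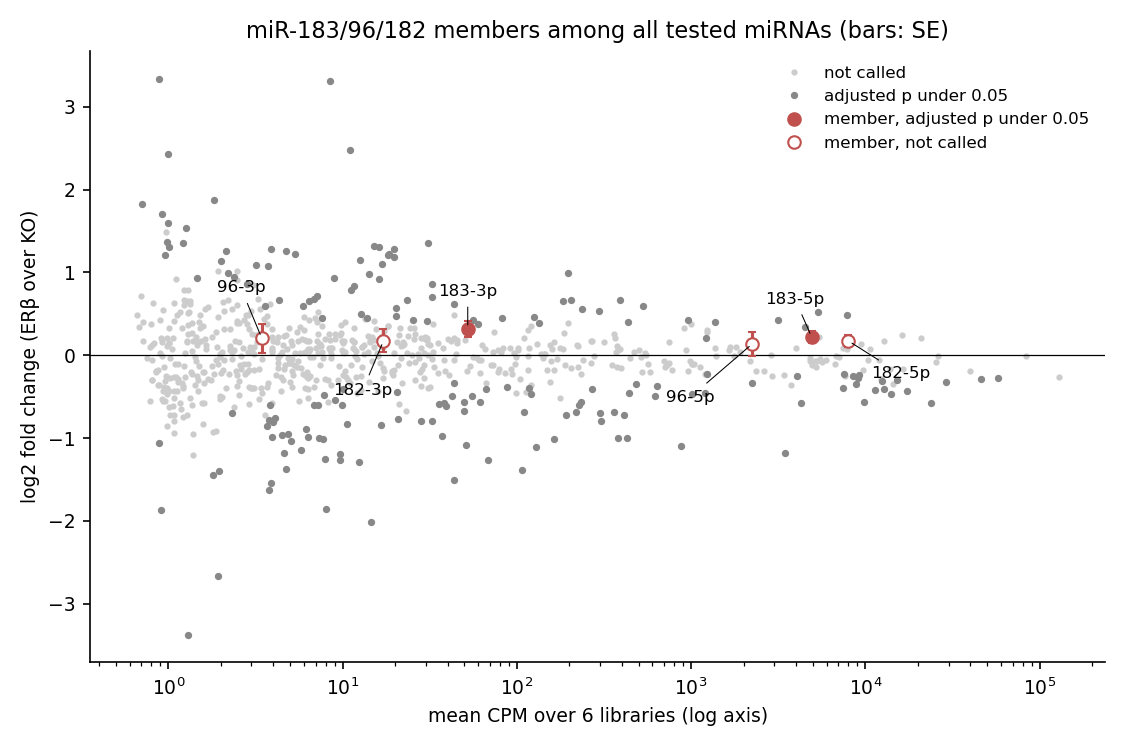
Log2 fold change (ERβ over KO) against mean CPM over the 6 libraries (log axis) for all 783 tested miRNAs (grey) and the 6 members (red, with SE bars; filled where the adjusted p was under 0.05). All members lie a little above 0, between 0.14 and 0.32, inside the cloud of miRNAs of like abundance.

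Within the cluster the arms kept a steep and stable order. miR-182-5p made up 52.3 ± 1.16% of the members' reads with ERβ and 52.7 ± 0.65% in knockout cells, and miR-183-5p made up 32.7 ± 0.66% and 32.0 ± 3.40% of them (SD, n = 3 each). miR-96-5p followed with 14.6 ± 0.52% in ERβ libraries and 14.9 ± 2.77% in knockout libraries. The 3 passenger arms together took the small remainder, led by miR-183-3p at 0.358 ± 0.0126% with ERβ and 0.327 ± 0.0201% without. In the knockout group S2 stood apart from the other libraries, as miR-96-5p held 11.7% of the members' reads there (95% interval 11.6 to 11.9%), against 16.4% (16.2 to 16.6%) in S1 and 16.6% (16.4 to 16.8%) in knockout library 3 (Clopper-Pearson).

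Ratios of counts within a library need no scaling between libraries, and 6 of them were compared between the groups. The guide to passenger ratio was lowest for the miR-183 hairpin. miR-183-5p was 91.8, 94.8 and 87.7 times as frequent as miR-183-3p in the ERβ libraries, and 87.3, 107 and 98.8 times in knockout libraries S1, S2 and 3. For miR-182 the ratio of 5p to 3p was 393, 484 and 530 with ERβ and 418, 452 and 541 in knockout cells. It was highest for miR-96, at 684, 626 and 602 with ERβ and 776, 497 and 706 in knockout libraries S1, S2 and 3. All 3 ratios overlapped between the groups, with differences of -0.09, -0.01 and -0.03 (log2, ERβ minus KO) for miR-183, miR-182 and miR-96 (exact two-sided permutation tests, p = 0.5, 1 and 0.9, each adjusted to 1 over the 6 ratios). No design of this size can show a difference at 0.05 in these tests, whose smallest p is 0.1.

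The ratios between guide strands also overlapped, but only through S2. miR-183-5p was 2.23, 2.21 and 2.30 times as frequent as miR-96-5p in the ERβ libraries, against 1.82, 3.06 and 1.81 times in knockout libraries S1, S2 and 3. The ERβ libraries lay together, S1 and 3 below them and S2 above them. The difference in means was 0.05 (log2, ERβ minus KO; exact two-sided permutation test, p = 1, adjusted p = 1), and 0.31 without S2 (p = 0.2, the smallest that 3 against 2 libraries allow). miR-182-5p over miR-96-5p behaved alike, with ratios of 3.41, 3.56 and 3.82 with ERβ and 3.24, 4.43 and 3.19 in knockout libraries S1, S2 and 3, a difference of 0.01 with all libraries (p = 1) and 0.16 without S2 (p = 0.2; exact two-sided permutation tests). For miR-183-5p over miR-182-5p the ratios were 0.653, 0.622 and 0.601 with ERβ and 0.563, 0.691 and 0.569 without, a difference of 0.05 (exact two-sided permutation test, p = 0.7, adjusted p = 1) and 0.14 without S2 (p = 0.2).

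**Figure D3:**
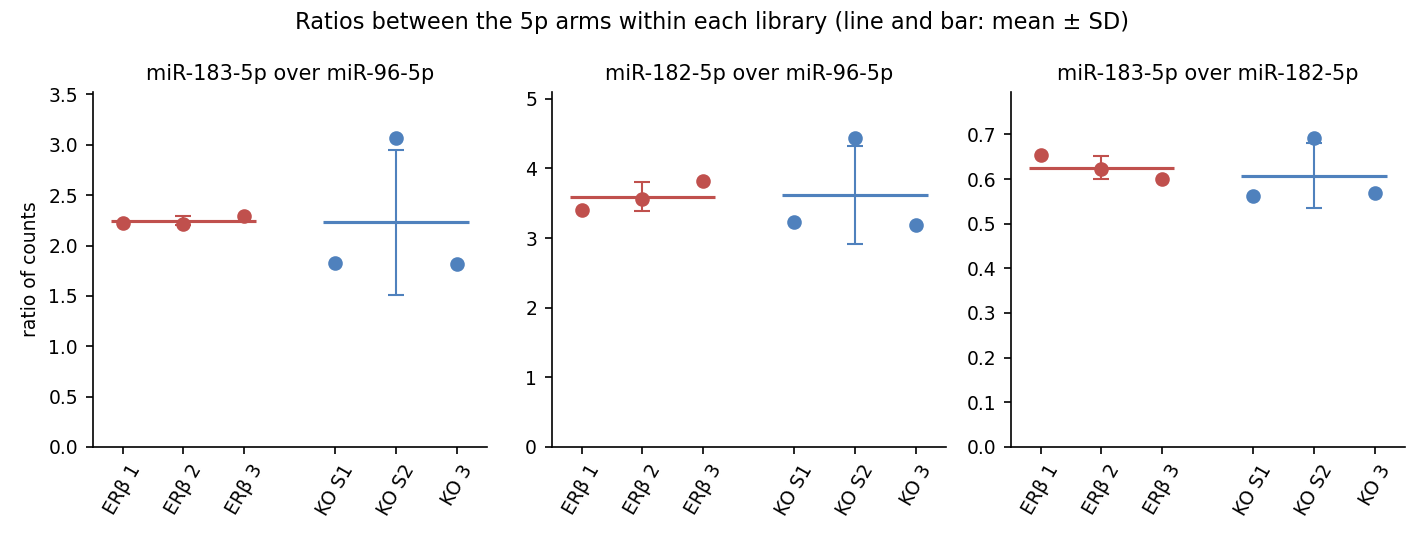
Ratio of counts between pairs of 5p arms (y axis, from 0) in each ERβ library (red) and knockout library (blue), with group means as lines and SD as bars. Knockout library S2 lies above the ERβ libraries in all 3 panels, at 3.06 for miR-183-5p over miR-96-5p, and knockout libraries S1 and 3 lie below them.

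**Figure D4:**
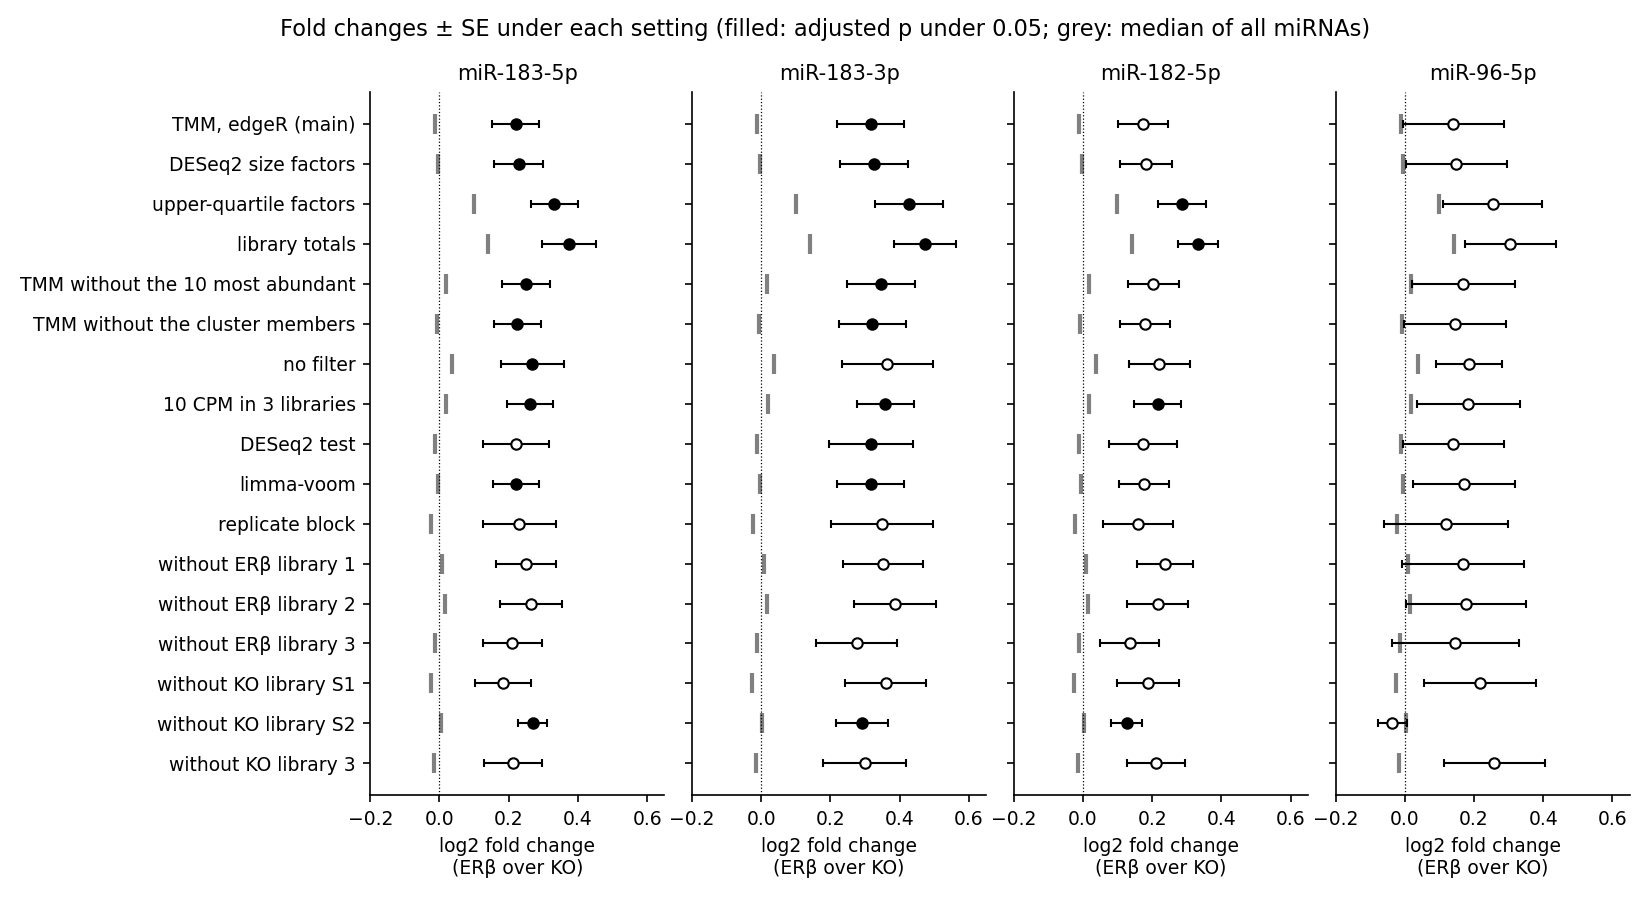
Log2 fold change (ERβ over KO) with its SE for 4 members under the main fit and the 16 alternatives (rows); filled points had an adjusted p under 0.05, and the grey bar is the median of all tested miRNAs in that setting. The point of miR-96-5p lies below 0 only without knockout library S2, at -0.04, and upper-quartile factors and library totals move the grey bar and the members to the right together.

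miRNAs related to the cluster by seed, place or role did not move as 1 group. The seed relative miR-1271-5p had 1 to 5 reads in a library and was too scarce to test, so reads on this seed came almost wholly from miR-96-5p. Among 11 other miRNAs listed within 5 Mb of the cluster 6 were tested. Of these 1 was higher and 0 lower, beside 9.83% and 13.3% of all tested miRNAs. The fitted value was above 0 for all 6, as for 48.7% of all tested miRNAs, with a median log2 fold change of 0.19. Of the 11, 3 were at 0 in every library. The list holds miR-129-1-3p but not miR-129-5p, the 5p arm that pairs with it by name. miR-129-5p was called lower, at -0.45 ± 0.13 (edgeR quasi-likelihood test, adjusted p = 0.0358). The count of 0 lower and the common sign therefore hold for the listed miRNAs only. The one that rose was miR-335-3p, from the hairpin in the imprinted MEST gene, with 479 ± 3.53 CPM with ERβ and 302 ± 64.0 CPM without (SD, n = 3 each; log2 fold change 0.67 ± 0.14, edgeR quasi-likelihood test, adjusted p = 0.00786). Its other arm miR-335-5p was at 0.10 ± 0.07 (adjusted p = 0.306). miR-29a-3p, a repressor of collagen genes, was at 0.13 ± 0.06 and miR-29b-3p, which has a second hairpin elsewhere, at 0.09 ± 0.07 (adjusted p = 0.172 and 0.450).

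Of 7 other epithelial miRNAs known to be repressed by ZEB1 or lost as cells turn mesenchymal, 1 was higher and 3 were lower, beside 9.83% and 13.3% of all tested miRNAs, with a median log2 fold change of -0.25. miR-205-5p, of the basal layer of epithelia, rose to 6311 ± 321 CPM with ERβ, against 4388 ± 359 CPM in knockout cells (SD, n = 3 each; 0.52 ± 0.08, edgeR quasi-likelihood test, adjusted p = 0.00149). miR-200c-3p (-0.31 ± 0.07), miR-141-3p (-0.33 ± 0.09) and the skin-enriched miR-203a-3p (-0.25 ± 0.06) fell, while miR-200b-3p was at -0.25 ± 0.09 and miR-200a-3p and miR-429 at -0.01 ± 0.10 and 0.07 ± 0.09. miR-27a-3p, which targets FOXO1 together with miR-96 and miR-182, had 5177 ± 193 CPM with ERβ and 5447 ± 18.5 CPM in knockout cells (SD, n = 3 each; -0.07 ± 0.06, adjusted p = 0.455).

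The miRNAs outside the cluster whose levels over the 6 libraries were most like those of its 3 guide strands were miR-18a-5p (Pearson r = 0.985), miR-335-3p (0.984), miR-17-5p (0.983), miR-561-5p (0.975) and miR-374b-3p (0.971), out of 188 averaging at least 100 CPM. The correlation is with the mean of the guides' standardized log2 CPM and is a description. The guides do not share 1 profile, since miR-183-5p and miR-96-5p had an r of 0.002 with each other. Against miR-182-5p alone the 5 miRNAs had an r of 0.927 to 0.985. Against miR-96-5p it was 0.646 to 0.813, and against miR-183-5p 0.553 to 0.736. All 5 miRNAs were lowest in knockout library S2, as were miR-96-5p and miR-182-5p but not miR-183-5p. Over the 5 libraries without S2, an alternative chosen after seeing the data, their r with the guides' mean was 0.727 to 0.892, and miR-17-5p, at rank 3 of the 188, stood highest among them. miR-18a-5p, of the oncogenic miR-17/92a cluster, had 243, 255 and 259 CPM with ERβ and 173, 127 and 177 CPM in knockout libraries S1, S2 and 3.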

How the data were processed

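The authors deposited 1 table of expected counts, with a row per mature miRNA. Libraries were made with a QIAseq miRNA kit, per the labels' protocols. FastQC, Trim Galore and build GRCh38 appear, with no version or role, per the submitters' processing notes. Which aligner and counter, which annotation release and what use of molecular identifiers went into the table were not given in the sources used here. Of the knockout columns 2 carry the number 1, so S1 and S2, named by the index that ends their names, are known by group only.

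Counts were rounded and the groups fitted with edgeR 4.0.16 under R 4.3.3 (filterByExpr at minimum count 10 and minimum total 15, TMM, robust quasi-likelihood test, Benjamini-Hochberg over 783 miRNAs), in 1 fit of all 6 libraries. The fit was also run on simulated counts, which held no outlying library such as S2. An SE is the log2 fold change divided by the root of its F value. Ratios had 0.5 added to each count and, like shares, were compared by exact permutation (SciPy 1.17.1). Log2 CPM used a prior count of 2. Alternatives were other scalings and filters, the DESeq2 1.42.0 and limma 3.58.1 tests, a replicate block and each library left out. Figures used matplotlib 3.10.9.

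All 6 members were named, with seed relatives, neighbours, lists by role and the 5 most alike miRNAs. Members and lists were chosen with earlier results of these data known.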

Additional observations from a re-analysis of the deposited data

How the results depend on the processing

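Of 16 alternative settings, the members' median log2 fold change stayed positive in all, with 0.30 under upper-quartile factors and 0.35 with library totals and 0.17 to 0.24 with a library left out; relative to the median of all miRNAs it was 0.16 to 0.25 higher. The members called higher, 2 in the reported fit, were 3 with upper-quartile factors, with library totals and at a minimum of 10 CPM in 3 libraries, 1 without a filter, 1 with the DESeq2 test and 0 with a replicate block, and 0 to 3 with a library left out; none was called lower under any setting. miR-96-5p reversed to -0.036 without knockout library S2, within a range of -0.036 to 0.26 with a library left out. Over all miRNAs, 77 were higher and 104 lower; these counts were 123 higher with upper-quartile factors, 146 higher and 61 lower with library totals, 66 lower with the filter of 10 CPM in 3 libraries, and 49 to 122 higher and 58 to 157 lower with a library left out. The replicate block used the numbers in the column names, with 38 higher and 50 lower. These numbers do not establish pairs, since 2 knockout columns share the number 1 and none has 2. ERβ library 2 was thus alone in its block and added nothing to the group difference in that setting. Same-numbered libraries deviated with correlations of -0.10, 0.13 and 0.12. With a library left out, the difference in log2 ratio ranged from -0.074 to 0.31 for miR-183-5p over miR-96-5p, -0.077 to 0.16 for miR-182-5p over miR-96-5p, -0.0043 to 0.14 for miR-183-5p over miR-182-5p, -0.17 to -0.02 for miR-183-5p over its 3p arm, -0.10 to 0.12 for miR-182 and -0.22 to 0.10 for miR-96. The causes of these shifts were not tested. Some settings have fewer libraries or miRNAs by construction. The cluster's share of counts kept its direction in every alternative. Counting error is largest, relative to the level, for miR-96-3p.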
